A study of Sus scrofa with 207 samples.

Results

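Drip loss is the fluid that fresh meat releases during storage, and pigs at its far ends were compared here by the gene expression of their muscle. Of 207 pigs, 36 lay at the extremes. The low group held the 21 animals with a drip loss at or below 2.5%, and the high group the 15 animals at or above 8.5%, whatever their fat area. A further 36 animals between 4.5 and 6% were set beside them, to show whether a gene moved steadily across the range. The groups were formed from the trait in the sample labels and not from any expression value. All animals were commercial crossbred pigs labelled Pix(DLxDE), slaughtered at a mean end weight of 110 kg. The labels say only that the array tissue was muscle, taken at slaughter. Drip loss was measured on M. longissimus dorsi, as the percent weight lost by a piece cut a day after death and hung in the cold. The labels name no agent, diet or genotype that differs between the groups, and give neither sex, sire nor slaughter day. Animals that share a litter or a slaughter day may therefore stand among the replicates, and p-values measure the spread between these animals.

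Drip loss averaged 2.00 ± 0.25% (SD, n = 21) in the low group, with a range of 1.45 to 2.38%. It averaged 9.39 ± 0.76% (SD, n = 15) in the high group, with a range of 8.51 to 10.82%. The middle group averaged 5.25 ± 0.39% (SD, n = 36). The nearest animals outside the limits had 2.63% on the low side and 8.47% on the high side. Fat area, the fat over M. longissimus dorsi, was 15.8 ± 4.26 cm2 in the low group (SD, n = 20, with 1 animal unrecorded) and 13.6 ± 2.95 cm2 in the high group (SD, n = 15). That difference was within the spread between animals (two-sided permutation test, p = 0.102).

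Meat holds water inside its myofibrils, and loses it when the filament lattice shrinks and membranes leak after death. The speed and extent of acidification, driven by glycolysis of stored glycogen, set much of this shrinkage, and calcium release through the ryanodine receptor is a classical accelerator of it in pigs. The cleavage of cytoskeletal proteins by calpains, and their inhibition by calpastatin, further shape how water moves out of the fibre. Immediate early genes are transcription factors and signalling genes that cells switch on within minutes of stress or exercise, so they can record the state of muscle at the time of death.

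Each array gave log2 signals for 23935 probe sets after control probe sets were left out. Array medians lay between 5.96 and 6.18 on that log2 scale over all 207 animals. The sample titles carry a lower and a higher series of numbers, whose meaning is not stated. All 15 high animals were of the lower series, against 14 of 21 low and 31 of 36 middle animals. Arrays that correlated poorly with the rest numbered 3 in the low, 6 in the middle and 0 in the high group. Skeletal muscle markers were as bright in every group: the mean log2 signal of 10 measured markers ran from 13.65 to 13.81 in low and from 13.68 to 13.78 in high animals. The adipocyte hormone gene ADIPOQ had a log2 signal of 5.71 in the median low and 5.81 in the median high animal, where 4 is the floor of the scale.

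One array property differed between the groups. The actin and EF1A control probe sets read the same transcripts near their 3′ and their 5′ ends, and the gap between the readings widens as RNA is broken or copied incompletely. This 3′ minus 5′ signal was 2.29 ± 0.38 log2 units in low animals (SD, n = 21), with a lowest value of 1.79, a median of 2.25 and a highest of 3.08. It was 1.85 ± 0.45 in high animals (SD, n = 15), with a lowest value of 1.28, a median of 1.71 and a highest of 2.65. The middle group averaged 2.05 ± 0.45 (SD, n = 36). The high animals thus had the smaller gap, although the groups overlapped, and the difference of -0.45 passed a two-sided permutation test (p = 0.00312, 0.0218 after Benjamini-Hochberg adjustment over 7 properties). Within the lower number series the low animals averaged 2.17 ± 0.31 (SD, n = 14). The low animals of the higher series averaged 2.55 ± 0.41 (SD, n = 7). In the animals outside the extreme groups this signal had a correlation of only 0.03 with drip loss. Beside each result below, the value with this signal as a covariate is given where it matters.

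**Figure D1:**
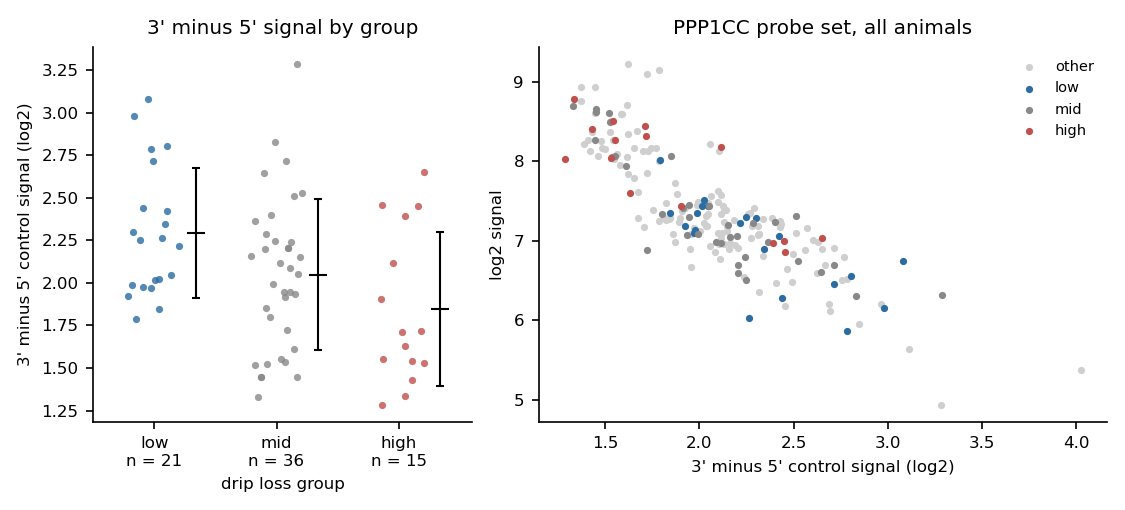
The left panel plots the 3′ minus 5′ control signal (log2 units) of each low, middle and high drip loss animal, with bars for the mean and SD. The right panel plots the log2 signal of the PPP1CC probe set that passed the test against the same control signal in all 207 animals; its points fall along a descending band, with a Pearson correlation of -0.84 in the animals outside the extreme groups.

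Between the extremes 17 probe sets differed at an adjusted p under 0.05 in limma, 0.071% of those tested. Of these 7 were higher in high drip loss muscle (0.0292%) and 10 were lower (0.0418%). The smallest adjusted p was 0.0355, and 696 probe sets had an adjusted p under 0.10. At an unadjusted p under 0.05 the count was 3930, or 16.4% of the probe sets, against 1197 if no gene were related to drip loss. That excess depended on the fit: the count was 1559 (6.51%) with the 3′ minus 5′ control signal as a covariate, 1267 (5.29%) with 5 principal components as covariates and 906 (3.79%) with blocks of 100 title numbers, below the 1197. Blocks that held only low or only high animals add nothing to that contrast. The block fit, here and below, thus compared fewer animals with less power, and its lower counts cannot tell lost power from lost differences. Of the 17, 9 carried a single gene symbol and 8 carried none.

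The rises in high drip loss muscle with a mean signal above the array median were of CDIPT, ACADVL and PPP1CC. CDIPT encodes the enzyme that makes phosphatidylinositol, the precursor of phosphoinositide signalling lipids. Its log2 signal was 6.21 at the lowest, 6.46 at the median and 6.81 at the highest in low animals, and 6.39, 6.93 and 7.55 in high animals. In 11 of 15 high animals it lay above every low animal. The difference was 0.46 ± 0.08 log2 units (SE), a 1.38-fold rise, with an adjusted p of 0.0355 in limma.

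ACADVL encodes very long chain acyl-CoA dehydrogenase, which opens the mitochondrial oxidation of long fatty acids. Low animals ran from 6.68 through a median of 7.17 to 7.95, and high animals from 6.97 through 8.10 to 8.48. The high animals split, with 8 of 15 above every low animal and 3 below the low median. The rise was 0.65 ± 0.13 log2 units (SE), or 1.57-fold (limma adjusted p = 0.0432). PPP1CC, the gamma catalytic subunit of protein phosphatase 1, which removes phosphate from many proteins including enzymes of glycogen turnover, had low animals from 5.86 through 7.13 to 8.02. High animals ran from 6.86 through 8.04 to 8.78, with 9 of 15 above every low animal. Its rise was 0.89 ± 0.19 log2 units (SE), 1.85-fold, with an adjusted p of 0.0472 in limma.

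The falls with a symbol and a mean above the median were of GORASP2, AZIN1 and HNRNPD. GORASP2 encodes a protein that stacks and links Golgi cisternae. It ran from 9.32 through a median of 9.78 to 10.27 in low animals and from 8.94 through 9.40 to 9.78 in high animals, a fall of 0.37 ± 0.08 log2 units (SE; limma adjusted p = 0.0432). AZIN1 encodes antizyme inhibitor 1, which frees ornithine decarboxylase from antizyme and so favours polyamine synthesis. It ran from 8.91 through 9.35 to 9.94 in low and from 8.73 through 8.99 to 9.35 in high animals, a fall of 0.37 ± 0.08 (SE; limma adjusted p = 0.0453).

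HNRNPD encodes a protein that binds AU-rich stretches of messenger RNA and affects their decay. Its low animals ran from 10.24 through 10.73 to 11.14, and its high animals from 10.05 through 10.35 to 10.66. All 15 high animals lay below the low median, and 14 of 15 did so for GORASP2 and for AZIN1. The HNRNPD fall was 0.35 ± 0.07 log2 units (SE), with an adjusted p of 0.0470 in limma. For these 3 genes the shift was small but shared by nearly the whole group, and low and high animals overlapped.

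**Figure D2:**
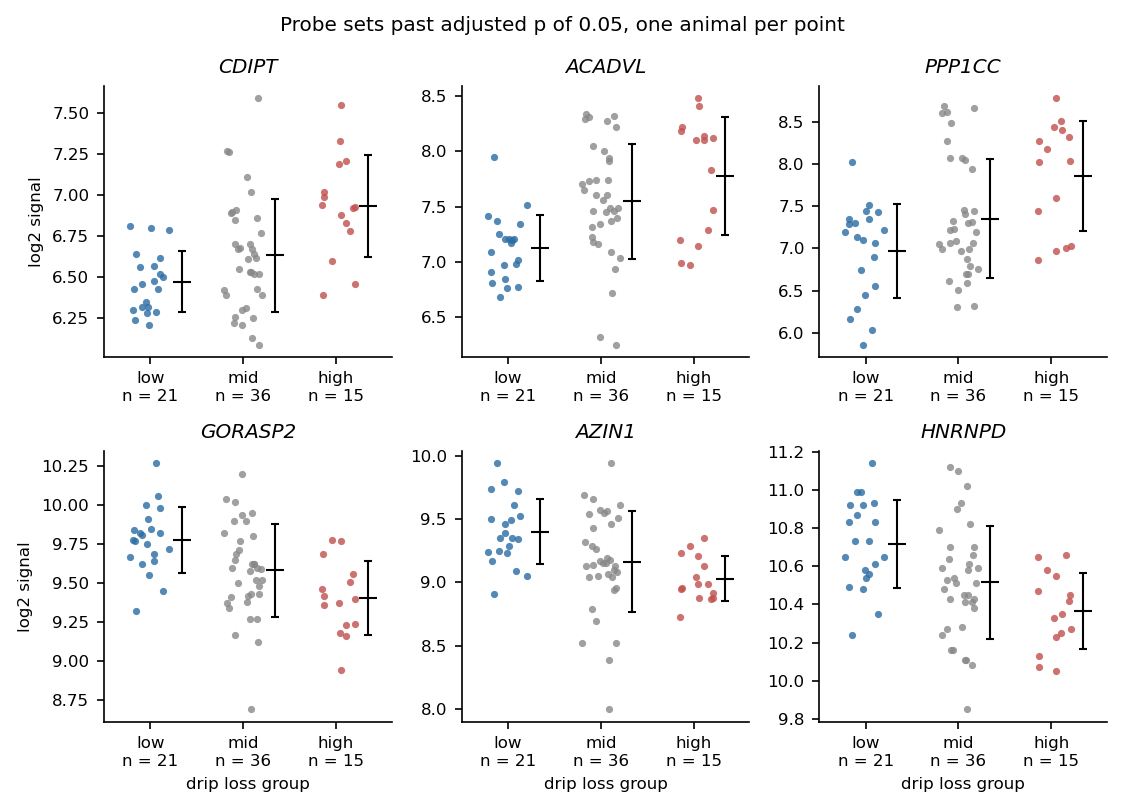
Each panel plots the log2 signal of 1 gene in every low, middle and high drip loss animal, with bars for the mean and SD. CDIPT, ACADVL and PPP1CC have their highest group at high drip loss, GORASP2, AZIN1 and HNRNPD their lowest, and the middle animals span both.

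Of the other 11 probe sets, 3 had a symbol but a mean signal below the array median. ZDHHC3, a palmitoyltransferase of the Golgi, rose by 0.30 ± 0.06 log2 units (SE; limma adjusted p = 0.0432), and LOC100513542, a gene with no given name, rose by 0.90 ± 0.18 (SE; limma adjusted p = 0.0432). A probe set for the ribosomal protein gene RPL7 fell by 0.43 ± 0.09 (SE; limma adjusted p = 0.0470). Of the 8 without a symbol, 2 rose, by 0.36 and 0.43 log2 units, and 6 fell. Among the falls, 1 probe set dropped by 0.52 log2 units and lay below every low animal in 10 of 15 high animals.

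Most of these genes are read by more than 1 probe set, and the other probe sets did not repeat the rises. The second PPP1CC probe set differed by 0.02 ± 0.07 log2 units (SE), where the first had differed by 0.89. The second ACADVL probe set differed by 0.07 ± 0.06 (SE), and that of ZDHHC3 by 0.01 ± 0.06 (SE). That of LOC100513542 differed by 0.08 ± 0.06 (SE), and the other CDIPT probe sets by 0.15 ± 0.08 and 0.12 ± 0.07 (SE). None of these passed the test, so each rise was measured by 1 probe set of its gene. The falls of AZIN1 and HNRNPD were nearer to shared. The second AZIN1 probe set differed by -0.26 ± 0.10 (SE) and the second HNRNPD probe set by -0.21 ± 0.07 (SE), with unadjusted p of 0.0131 and 0.00784 in limma. The second RPL7 probe set differed by -0.04 ± 0.04 (SE), and GORASP2 had 1 probe set.

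The 3′ minus 5′ control signal moved with most of the 17 probe sets. Outside the extremes 14 of the 17 correlated with it at an adjusted p of r under 0.05. In the animals outside the extremes, which share no array with this comparison, the PPP1CC probe set correlated with it at a Pearson r of -0.84 and a Spearman rho of -0.83 (both permutation p = 1e-05, the smallest the permutations can give). The adjusted p of r over 21 such relations was 1.75e-05, and r was -0.84 without the 2 animals farthest from the median. The LOC100513542 probe set had r = -0.80 and rho = -0.79, and ACADVL had r = -0.67 and rho = -0.68 (all 4 at a permutation p of 1e-05). The other 3 were AZIN1, with r = -0.07 (permutation p = 0.358) and rho = 0.01 (permutation p = 0.943), RPL7, with r = 0.15 (permutation p = 0.0512) and rho = 0.19 (permutation p = 0.0147), and 1 probe set without a symbol. With the control signal as a covariate in limma, all 17 differences kept their sign and an unadjusted p under 0.05. They shrank to between 41.9 and 97.4% of their size, with a median of 65.7%, and 0 of 23935 probe sets passed the adjusted threshold, with 1559 at an unadjusted p under 0.05. The AZIN1 difference was -0.35 log2 units in that fit, the CDIPT difference 0.30 and the PPP1CC difference 0.37. Among the 29 extreme animals of the lower number series all 17 again kept their sign and an unadjusted p under 0.05, and 0 of 23935 probe sets passed the adjusted threshold in limma (2549, or 10.6%, at an unadjusted p under 0.05). Both fits used animals that had picked the 17, so a kept sign was likely in advance.

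Immediate early genes had lower signals in high drip loss muscle, without passing the test. FOS, the DNA-binding partner of JUN in the AP-1 transcription factor, had a log2 signal of 9.11 at the lowest, 12.13 at the median and 13.28 at the highest in low animals. High animals had 7.41, 10.67 and 12.81, and 14 of 15 lay below the low median. The difference was -1.08 ± 0.38 log2 units (SE; limma adjusted p = 0.137). EGR1, a zinc finger transcription factor induced by growth signals and contraction, went from a low median of 8.75 (6.84 to 11.11) to a high median of 7.90 (6.14 to 9.84), a difference of -0.997 ± 0.35 (SE; limma adjusted p = 0.132). The dimmer EGR1 probe sets differed by -0.74 ± 0.32 and -0.76 ± 0.35 (SE; limma adjusted p = 0.228 and 0.256). Both genes ranged over several log2 units within each group, and the groups overlapped in most of that range. For FOS 3 high animals lay below every low animal and 2 low animals above every high animal. For EGR1, in the brightest probe set, these counts were 1 and 6.

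DUSP1, the phosphatase that switches off stress-activated MAP kinases, had a low median of 11.90 (11.05 to 12.56) and a high median of 11.34 (9.72 to 12.60). In 5 of 15 high animals it lay below every low animal. The difference was -0.65 ± 0.18 log2 units (SE; limma adjusted p = 0.0713). CXCL2, a chemokine that attracts neutrophils, taken from the list of chemokines and cytokines, differed by -0.69 ± 0.18 (SE; limma adjusted p = 0.0685), from a low median of 7.57 (6.65 to 9.08) to a high median of 6.91 (5.99 to 7.89). CYR61, a matrix protein induced by stretch and serum, differed by -0.95 ± 0.23 (SE; limma adjusted p = 0.0600), with medians of 9.88 (8.59 to 10.92) and 8.94 (7.55 to 10.43). MYC differed by -0.83 ± 0.26 (SE; limma adjusted p = 0.0986) and SGK1, a kinase induced by glucocorticoids and osmotic stress, by -0.48 ± 0.12 (SE; limma adjusted p = 0.0685).

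As a list, 21 measured genes of early feedback and signalling had a median difference of -0.39 log2 units, against 0.01 over all 6765 genes taken with 1 probe set each. Of the 21, 19 had a negative difference. At an unadjusted p under 0.05, 0 were higher and 9 lower, where 8.35% of all genes were higher and 8.96% lower. The 15 measured immediate early transcription factors had a median of -0.18, with 13 negative and 4 lower at that threshold. No member of either list passed the adjusted threshold. Both lists were chosen with earlier results of these data known, so their counts beside those of all genes are no independent test. The 15 measured chemokines and cytokines had a median of 0.0027, with 1 higher and 1 lower, the latter being CXCL2. With the 3′ minus 5′ control signal as a covariate 4 of the 21 and 0 of the 15 transcription factors were lower at an unadjusted p under 0.05, where 3.16% of all genes were lower. The FOS difference was then -0.49 log2 units and that of DUSP1 -0.54. In the lower number series the counts were 9 of 21 and 4 of 15, where 6.02% of all genes were lower. With blocks of title numbers they were 4 of 21 and 0 of 15, where 2.34% were lower, and the medians were -0.29 and -0.09.

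Where the limits were widened to 3 and 8%, giving 39 low and 29 high animals, 16 probe sets passed in limma (0.0668%), among them CXCL2 and 4 early-response genes. Of the 17 probe sets of the narrower groups 1, that of CDIPT, passed again. CYR61 fell by 1.01 ± 0.16 log2 units (SE; adjusted p = 0.000414), FOS by 1.26 ± 0.25 (SE; adjusted p = 0.0145) and EGR1 by 1.06 ± 0.23 (SE; adjusted p = 0.0442). DUSP1 fell by 0.69 ± 0.12 (SE; adjusted p = 0.00320) and CXCL2 by 0.74 ± 0.13 (SE; adjusted p = 0.00320). The differences were close in size to those between the narrower groups, with smaller errors.

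**Figure D3:**
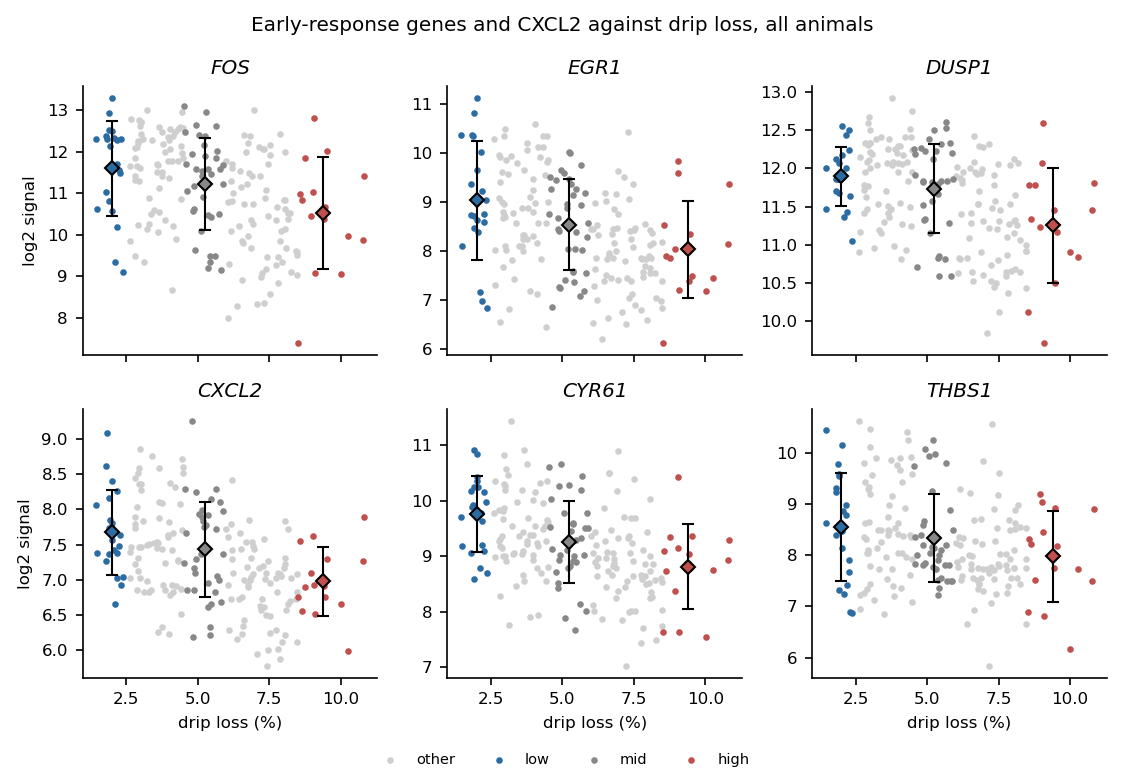
Each panel plots the log2 signal of an early-response gene or of CXCL2 against drip loss (%) in all 207 animals, with diamonds and bars for the mean and SD of the low, middle and high groups. The group means descend from low to high drip loss in all 6 panels (THBS1 was chosen for the plot after its values were seen), while single animals spread over several log2 units at every drip loss.

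The animals outside the extremes (all 207 less the 36) share no array with the low and high groups. The gene lists were chosen with earlier results of these data known, so these animals are no independent test of the lists. A straight line on drip loss passed an adjusted p of 0.05 for 62 probe sets in limma (0.259%), of which 21 had positive slopes (0.0877%) and 41 negative slopes (0.171%). The smallest adjusted p values were those of CXCL2 and of early-response genes. CXCL2 fell by 0.18 ± 0.03 log2 units per percentage point of drip loss (SE; adjusted p = 7.51e-06), DUSP1 by 0.16 ± 0.02 (SE; adjusted p = 7.51e-06) and FOS by 0.29 ± 0.05 (SE; adjusted p = 4.17e-05). EGR1 fell by 0.24 ± 0.04 (SE; adjusted p = 0.000106) and CYR61 by 0.18 ± 0.03 (SE; adjusted p = 0.000262).

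Of the 21 feedback and signalling genes 7 passed in these animals, where 0.192% of all genes passed with a negative slope, and all 21 had negative slopes. Of the 15 transcription factors 4 passed, all with negative slopes. Other falls with a single symbol included ZFP36, whose protein degrades AU-rich messages, the hormone precursor gene ADM, and MYC, KLF4, IER2, DUSP6, GADD45B and PPP1R15A. Rises included UNC93B1, a trafficking partner of endosomal Toll-like receptors, by 0.05 ± 0.01 per percentage point (SE; adjusted p = 0.0104), and the mitochondrial thioesterase gene ABHD10 by 0.04 ± 0.01 (SE; adjusted p = 0.0187).

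The extremes leaned the same way. Of the 62 probe sets, 56 had the same sign between the extreme groups, where 57.3% of all probe sets did. Of these, 35 also had an unadjusted p under 0.05 there in limma, where 16.4% of all probe sets had one in either direction. Divided by the gap of 7.39 percentage points between the group means, the extreme difference was -0.15 log2 units per point for FOS, -0.09 for CXCL2, -0.09 for DUSP1 and -0.13 for CYR61. These were smaller than the slopes in the other animals. These genes were also among those with the smallest adjusted p in the other animals. In a single fit over all 207 animals, added after the data were seen, the slope among the extremes was compared with that among the others. It differed by 0.15 ± 0.07 for FOS, 0.08 ± 0.04 for CXCL2, 0.08 ± 0.04 for DUSP1 and 0.05 ± 0.05 for CYR61 (SE). The limma adjusted p values were 0.591, 0.5725, 0.585 and 0.797 (unadjusted 0.036, 0.030, 0.034 and 0.24), so these gaps in size were not resolved. In that fit 0 of 23935 probe sets had an adjusted p under 0.05 in limma, with 1900 at an unadjusted p under 0.05 (7.94%).

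The 17 probe sets called between the extremes did not carry over in the same manner. Of them 8 had a slope of the same sign in the other animals, and 0 passed in limma after adjustment. At an unadjusted p under 0.05 there were 2 of these 8, where 3010 of all 23935 probe sets had a slope of either sign. AZIN1 was among these 2, with a slope of -0.04 ± 0.02 log2 units per percentage point (SE; limma adjusted p = 0.218), and RPL7 was the other, at -0.04 ± 0.01 (SE; limma adjusted p = 0.187). The second AZIN1 probe set had a slope of -0.07 ± 0.02 (SE; limma adjusted p = 0.0572), and the second RPL7 probe set one of -0.0008 ± 0.006 (SE; limma adjusted p = 0.977). The slope of PPP1CC was -0.03 ± 0.03 (SE) and that of ACADVL -0.02 ± 0.02 (SE), opposite in sign to their rise between the extremes. The slope of CDIPT was 0.01 ± 0.01 (SE). For 4 genes, FOS, EGR1, DUSP1 and CXCL2, the relation to the 3′ minus 5′ control signal was computed in these animals, and none passed. For FOS, r was 0.03 (permutation p = 0.673) and rho 0.04 (permutation p = 0.638), and for DUSP1, r was -0.03 (permutation p = 0.745) and rho -0.01 (permutation p = 0.907).

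**Figure D4:**
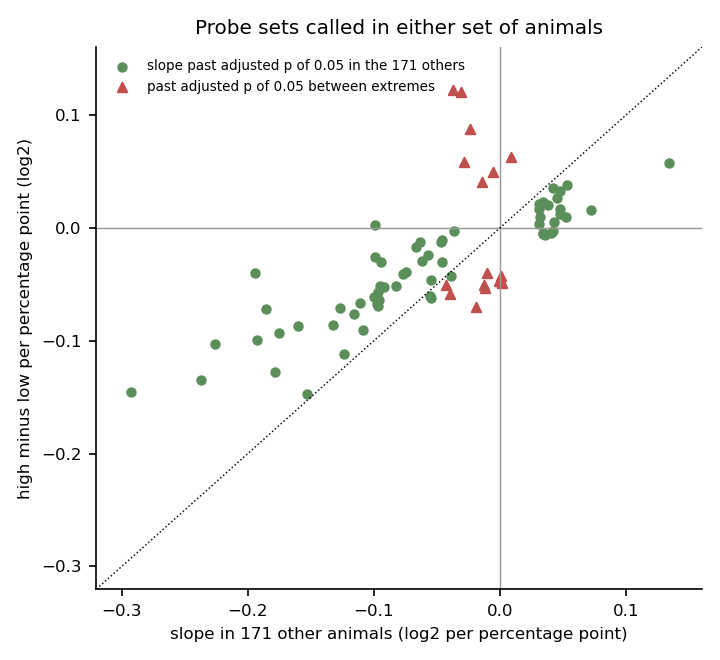
Each point is a probe set called either between the extremes (17 triangles) or along drip loss in the other animals (62 circles), with the slope in the others (log2 units per percentage point) across and the extreme difference per percentage point upward. The dotted line marks equal values; 56 of the 62 circles share their sign on both axes, against 8 of the 17 triangles.

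Subunits of the respiratory chain, which carries electrons to oxygen in the mitochondrion and drives ATP synthesis, had slightly higher signals in high drip loss muscle. Of 33 measured complex I genes 29 had a positive difference, the median was 0.11 log2 units, and at an unadjusted p under 0.05, 10 were higher and 0 lower, where 8.35% of all genes were higher and 8.96% lower. Complexes II to IV had a median of 0.12 over 13 genes, with 4 higher and 0 lower, and ATP synthase a median of 0.12 over 14 genes, with 6 higher and 0 lower. ATP5I, a small membrane subunit of ATP synthase, had low animals from 9.29 through a median of 10.06 to 10.32 and high animals from 9.93 through 10.33 to 10.78. Its difference was 0.40 ± 0.09 log2 units (SE; limma adjusted p = 0.0547), and 14 of 15 high animals lay above the low median. NDUFB1, an accessory subunit of complex I, differed by 0.31 ± 0.09 (SE; limma adjusted p = 0.0844) and COX6C, a subunit of cytochrome oxidase, by 0.25 ± 0.08 (SE; limma adjusted p = 0.0993). No respiratory gene passed after adjustment in its brightest probe set, the one used for lists. For SDHA, a complex II gene, the brightest probe set differed by 0.03 ± 0.06 (SE). Its dimmer probe set differed by 0.88 ± 0.19 (SE; limma adjusted p = 0.0506), or by 0.31 with the control signal as a covariate.

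With the control signal as a covariate, 3 of 33, 2 of 13 and 3 of 14 respiratory genes were higher at an unadjusted p under 0.05, where 2.82% of all genes were higher. In the lower number series the counts were 6, 2 and 1, where 4.04% of all genes were higher, and the medians were 0.06, 0.05 and 0.07 log2 units. Without the 3 poorly correlating arrays, all of low animals, the medians were 0.05, 0.06 and 0.07, and 9, 3 and 2 genes were higher, where 5% of all genes were. With blocks of title numbers 0, 0 and 1 were higher, where 1.23% of all genes were. In the animals outside the extremes 22 of 33 complex I genes had a positive slope at an unadjusted p under 0.05, where 12.1% of all genes did, and 0 passed after adjustment in limma. For the enzymes of fuel use the median difference was 0.02 log2 units for 17 genes of the TCA cycle, 0.03 for 21 of fatty acid oxidation and 0.03 for 15 of glycolysis. PPARGC1A, the coactivator that drives mitochondrial gene expression, ran from 6.62 through a median of 8.75 to 10.97 in low and from 6.19 through 7.49 to 10.24 in high animals, and its difference of -0.71 ± 0.41 (SE; limma adjusted p = 0.402) was within that spread.

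Genes of cytosolic ribosomal proteins, the protein part of the translation machinery, had a median difference of 0.07 log2 units over 59 measured members, 51 of them positive. At an unadjusted p under 0.05, 15 were higher and 2 lower, where 8.35% of all genes were higher. RPS18 had the clearest value, 0.20 ± 0.06 (SE; limma adjusted p = 0.0828). With the control signal as a covariate 55 were positive and 10 higher, where 2.82% of all genes were higher. In the lower number series the median was 0.03, with 43 positive, 1 higher and 1 lower (4.04% of all genes were higher and 6.02% lower). Without the 3 low arrays it was 0.02, with 46 positive and 6 higher (5% of all genes). With blocks of title numbers it was 0.02, with 0 higher (1.23% of all genes). In the animals outside the extremes 49 of 59 slopes were positive, but at an unadjusted p under 0.05 0 were positive and 2 negative (3.89% of all genes had such a negative slope). Proteasome subunits had a median difference of 0.04 over 33 genes, with 3 higher and 2 lower, where 8.35% of all genes were higher and 8.96% lower. In the list of atrophy, autophagy and protease genes, 3 of 16 were higher at an unadjusted p under 0.05, where 8.35% of all genes were. These were FOXO3, a transcription factor that turns on protein breakdown, and the lysosomal proteases CTSB and CTSS. With the control signal as a covariate 1 of the 16 was higher (2.82% of all genes), and in the lower number series 3 (4.04%). In the animals outside the extremes 0 of the 16 had a positive slope at that threshold, where 12.1% of all genes did.

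Heat shock chaperones, which refold proteins under stress, had a median difference of -0.12 log2 units over 28 genes, 25 of them negative, with 0 higher and 6 lower at an unadjusted p under 0.05, where 8.96% of all genes were lower. BAG3, a cochaperone that clears damaged proteins at the Z-disc, differed by -0.37 ± 0.11 (SE; limma adjusted p = 0.0932). HSF2, a heat shock transcription factor, differed by -0.48 ± 0.15 (SE; limma adjusted p = 0.102), and all 15 high animals lay below the low median of 9.56. With the control signal as a covariate the median was -0.08 and 25 of the 28 were negative. At an unadjusted p under 0.05, 0 were lower in that fit, where 3.16% of all genes were. In the lower number series 6 of the 28 were lower (6.02% of all genes), and with blocks of title numbers 2 (2.34%). In the animals outside the extremes 25 of the 28 slopes were negative, 6 of them at an unadjusted p under 0.05, where 3.89% of all genes had such a slope. Of 14 hypoxia genes 4 were lower (8.96% of all genes were), among them HIF1A, the oxygen-sensing transcription factor, at -0.28 ± 0.12 (SE; limma adjusted p = 0.208). With the control signal as a covariate 0 of the 14 were lower (3.16% of all genes), and in the lower number series 1 (6.02%).

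Structural genes of the costamere and sarcomere, which tie the contractile lattice to the membrane, had a median difference of -0.07 over 18 genes, with 1 higher and 3 lower at an unadjusted p under 0.05, where 8.35% of all genes were higher and 8.96% lower. XIRP2, an actin-binding repeat protein of the myotendinous junction and intercalated disc, differed by -0.37 ± 0.10 log2 units (SE; limma adjusted p = 0.0685). CAPZB, which caps actin filaments at the Z-disc, differed by 0.29 ± 0.07 (SE; limma adjusted p = 0.0665). TTN, the giant spring protein titin, differed by -0.11 ± 0.05 (SE; limma adjusted p = 0.270).

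The genes best known in pig meat quality did not pass. RYR1, the calcium release channel whose mutation causes pale, exudative pork, had low animals from 12.42 through a median of 12.86 to 13.22 and high animals from 12.29 through 12.61 to 13.16. In 14 of 15 high animals it lay below the low median, and the difference was -0.21 ± 0.07 log2 units (SE; limma adjusted p = 0.138), or -0.11 with the control signal as a covariate. PRKAG3, the AMP kinase subunit altered in pigs with excess muscle glycogen, differed by 0.16 ± 0.08 (SE; limma adjusted p = 0.277), from a low median of 5.99 to a high median of 6.24. CAST, which encodes calpastatin, differed by 0.04 ± 0.07 (SE; limma adjusted p = 0.811) in its brightest probe set. Its other probe sets lay between -0.13 ± 0.09 (SE; limma adjusted p = 0.473) and 0.14 ± 0.09 (SE; limma adjusted p = 0.466). The 4 probe sets of PYGM, muscle glycogen phosphorylase, disagreed. The brightest differed by 0.0017 ± 0.04 (SE; limma adjusted p = 0.991) and another by -0.02 ± 0.03 (SE), while the dimmer ones differed by 0.42 ± 0.14 (SE; limma adjusted p = 0.106) and 0.22 ± 0.12 (SE; limma adjusted p = 0.373). The probe set at 0.42 lay above every low animal in 9 of 15 high animals, and differed by 0.46 in the lower number series and by 0.12 with the control signal as a covariate. MYH7, the slow fibre myosin, differed by -0.03 ± 0.04 (SE; limma adjusted p = 0.773). These arrays read transcript levels only and carry no information on the coding variants of RYR1 or PRKAG3. Slow and fast fibre lists had medians of 0.01 and -0.01 log2 units over 9 genes each.

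Genes of other cells in the muscle piece were compared in the same way; in bulk tissue, fewer cells of a type and less RNA per cell cannot be told apart. Fibroblast markers had a median difference of 0.24 log2 units, with all 8 measured genes positive. At an unadjusted p under 0.05, 4 were higher, where 8.35% of all genes were higher and 8.96% lower. MFAP5, a microfibril protein, differed by 0.42 ± 0.15 (SE; limma adjusted p = 0.136) and DCN, a collagen-binding proteoglycan, by 0.24 ± 0.09 (SE; limma adjusted p = 0.161). The mean log2 signal of the 8 markers ran from 7.67 to 9.39 in low and from 8.91 to 9.63 in high animals. With the control signal as a covariate 4 of 8 were higher at an unadjusted p under 0.05, where 2.82% of all genes were. In the lower number series 1 was higher (4.04% of all genes), without the 3 low arrays 3 (5%) and with blocks of title numbers 0 (1.23%). The median was 0.14 in the lower number series and 0.09 with the blocks. With limits of 2 and 9% it was 0.11, and 0 of 8 were higher. In the animals outside the extremes 7 of 8 slopes were positive, with a median of 0.0205 log2 units per percentage point, against 0.0054 over all genes. At an unadjusted p under 0.05, 0 had a positive and 1 a negative slope there. Over all genes those shares were 12.1% and 3.89%. Macrophage markers had a median of 0.17 over 10 genes, with 2 higher at that threshold, where 8.35% of all genes were. With the covariate 0 were higher (2.82% of all genes), and in the lower number series 0 (4.04%) at a median of 0.08. Adipocyte markers had a median of 0.06 over 9 genes, with 1 higher and 1 lower, and FABP4, a fatty acid carrier of fat cells, differed by 0.21 ± 0.16 (SE; limma adjusted p = 0.531). ADIPOQ differed by 0.15 ± 0.17 (SE; limma adjusted p = 0.710). Medians for endothelial, smooth muscle, lymphocyte, blood and satellite cell markers lay between -0.06 and 0.02 log2 units. For nerve and Schwann cell markers the median was 0.17 over 5 genes, with 0 past an unadjusted p of 0.05, and the part of any of these cells in the differences above was not tested.

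**Figure D5:**
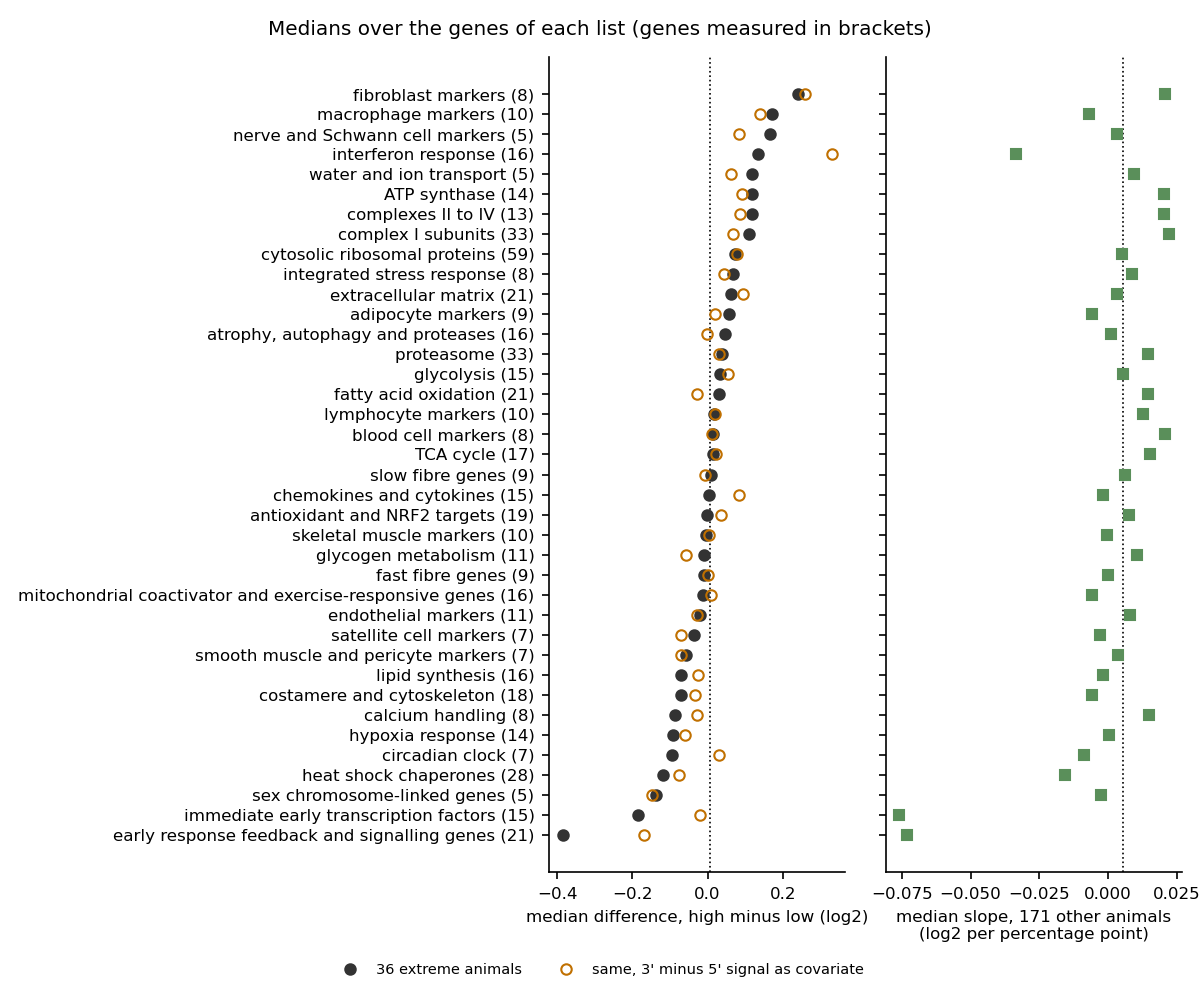
Dots in the left panel give the median high minus low difference (log2 units) over the genes of each list, filled as fitted and open with the 3′ minus 5′ control signal as a covariate; squares in the right panel give the median slope on drip loss in the other animals. The dotted lines mark the median over all 6765 genes, and both early-response lists lie lowest in the left panel as fitted and in the right panel.

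Set beside the extremes, the middle animals gave no gene with a difference or a bend past the test. High against middle animals gave 0 probe sets (0%) at an adjusted p under 0.05 in limma, with 1713 at an unadjusted p under 0.05 (7.16%) and a smallest adjusted p of 0.676. Middle against low animals gave 0 as well (0%), with 1764 at an unadjusted p under 0.05 (7.37%) and a smallest adjusted p of 0.478. The departure of the middle group from a straight line between the extremes passed for 0 probe sets (0%), with 890 at an unadjusted p under 0.05 (3.72%) and a smallest adjusted p of 0.999 in limma. The median middle animal lay between the extreme medians for CDIPT (6.62), ACADVL (7.53), PPP1CC (7.21), GORASP2 (9.60), AZIN1 (9.15) and HNRNPD (10.51). The same held for FOS (11.49), EGR1 (8.63), DUSP1 (11.82), CXCL2 (7.41) and CYR61 (9.22).

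Interferon response genes, which cells raise against viruses, had another shape. The median departure from the straight line was -0.27 log2 units over 16 genes, against -0.0031 over all genes, and 6 were below the line and 0 above it at an unadjusted p under 0.05, where 1.7% of all genes were below. ISG15, a ubiquitin-like protein, had a median of 7.25 in low, 6.91 in middle and 7.43 in high animals. Its highest animals reached 11.38, 9.45 and 12.02 in those groups, so single animals far above the rest stood at both extremes. The antiviral GTPase gene MX1 likewise reached 11.37 in low, 8.57 in middle and 11.81 in high animals, with medians of 6.75, 6.73 and 7.14. Between high and low animals MX1 differed by 0.61 ± 0.42 (SE; limma adjusted p = 0.491), within the spread of either group.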

How the data were processed

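Per the labels, total RNA of 207 muscle samples (500 ng each) was labelled as biotinylated cRNA and hybridised to Affymetrix Porcine Genome Arrays, 1 per animal. Signals were computed with GCOS 1.1.1 and PLIER, per the submitters' processing notes; any scaling between arrays is not given in the sources used here. The deposited values are log2 expression per probe set, from 4 to 15.32. The value 4 equals 16 on the linear scale, a floor at which 1.43% of the values lie. Whether 16 was a lower limit or was added before the log is not stated; both understate differences of dim probe sets. The number of arrays limits the precision. The values were used without renormalization.

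Control probe sets were left out, which left 23935 of 24123. Symbols came from GEO's array annotation: 10069 tested probe sets had 1 symbol, 198 several and 13668 none, and 9961 had a RefSeq entry of the same gene number, 0 of them with another symbol. For lists, the brightest probe set stood for each of 6765 genes. In R 4.3.3, limma 3.58.1 (functions lmFit, eBayes) fitted each comparison on its own groups, two-sided, with Benjamini-Hochberg adjustment over all probe sets tested and a threshold of 0.05. The middle group entered a fit of 3 groups, and the animals outside the extremes a straight line on drip loss. Array properties were compared with 100000 permutations. The code was tested on simulated arrays.

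The groups, the 27 gene lists and 11 marker lists were chosen with earlier results of these data known; 17 genes stand in more than 1 list. Named genes were those with an adjusted p under 0.05, 1 symbol and a mean above the median (6.10), up to 12 by t and 8 by size in each direction, 5 each way for the departure from a line, up to 4 passing members per list, and 12 genes given whatever their values. CYR61, THBS1 and the other list members, the probe sets outside this rule and the genes named for the animals outside the extremes were chosen after their values were seen. Alternatives changed normalization, probe set filter, animals, covariates, limits of the groups and moderation; those added after the data were seen were the lower number series with the 3′ minus 5′ covariate and the fit of unequal slopes.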

Additional observations from a re-analysis of the deposited data

How the results depend on the processing

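The count of 17 probe sets between the extremes depended on the setting. Over 267 refits of these probe sets 0 reversed their sign, 74 passed and the rest no longer passed. The refits drew on the animals that had picked these probe sets, so a kept sign was nearly fixed in advance. In the animals outside the extremes 8 of the 17 had the same sign. The count became 28 with all 207 arrays in 1 fit of 4 groups, 37 after quantile normalization and 251 among probe sets with a mean above the median, where fewer were tested. After quantile normalization 25 of the 37 were higher and among the bright probe sets 82 of the 251, against 7 of 17. It became 2 without the low-correlation arrays and 2 with the sex chromosome component as a covariate. It was 0 with the 3 groups in 1 fit, in the lower number series, with blocks of 100 title numbers, the 3′ minus 5′ control signal, the fat area, the adipocyte markers or 5 principal components as covariates, with limits of 2 and 9% (9 low and 10 high animals), and, added later, in the lower number series with the control signal as a covariate. In limma these settings gave between 906 (the blocks) and 3662 probe sets at an unadjusted p under 0.05, where 1197 would be expected with no relation, and the cause of the changes was not tested. For the gene lists, with each gene read by its brightest probe set, 0 members passed as reported, 1 in the fit of 4 groups (ATP5I), 2 after quantile normalization (ATP5I and CAPZB), 7 among bright probe sets (CXCL2, CYR61, DUSP1, SGK1, XIRP2, ATP5I and CAPZB) and 5 with wider limits. Dimmer probe sets of the list members ACADVL and RPL7 were among the 17. Middle against low animals gave 1 in the lower number series. In the animals outside the extremes the slope passed for 0.259% of probe sets, and for 0.794% of those tested among bright probe sets, 0.117% in the lower number series, 0.113% with blocks, 0.167% without low-correlation arrays and 0.435% with the control signal. The fit of unequal slopes gave 1 without low-correlation arrays, and 0 with the control signal or in the lower number series. No paired analysis was possible because each animal has 1 array and the labels give no numbers shared between groups. Signals near the floor limit what dim probe sets can show.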
